A study of Arabidopsis thaliana with 11 samples.

Results

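RNA bound to chromatin was compared with mature mRNA in Arabidopsis seedlings, gene by gene and intron by intron. The comparison used 5 of the 11 libraries of the series: 2 of CB-RNA and 3 of mRNA. Both groups came from 10-day-old seedlings of Col-0, the common laboratory accession, with no mutation and no treatment. For CB-RNA, nuclei were washed with urea, RNA was taken from the chromatin that remained, and rRNA was removed while polyadenylated RNA was kept. The mRNA group held polyadenylated RNA. Whole seedlings were used, so every value is a mixture of tissues, and fewer cells of a type cannot be told apart from less RNA per cell. A gene entered the comparison if each group had 50 or more of its exonic reads, which gave 14412 of the 22121 genes with introns in the tables. Introns needed at least 50 exonic reads beside each splice site in both groups, which gave 60319 of 121244 introns.

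An RNA that is still being copied from its gene is tied to chromatin through the transcribing polymerase. Chromatin-bound RNA therefore holds transcripts that are being made or have just been finished, many of them with introns not yet removed. Mature mRNA reflects both how much RNA is made and how long it lasts, so a transcript that lasts long in the cytoplasm takes a larger part of mRNA than of chromatin-bound RNA.

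The deposited tables count exonic and intronic reads in windows beside splice sites. These windows held 31261639 exonic reads in CB-RNA and 233785720 in mRNA. Intronic reads made up 24.3% of the window reads in CB-RNA and 2.22% in mRNA. Each table holds 1 pooled set of values per group, so no spread between libraries could be computed and no difference was tested. Intervals in brackets are 95% intervals from counting error only, on the log2 scale. Reads are not independent molecules, so these intervals are too narrow for a difference between seedling samples. The seedling labels were checked with marker genes. All 4 green tissue genes were counted in both groups, as were 4 of the 5 root genes; the root iron transporter IRT1 was counted in mRNA only. Of the flower genes, AG and AP3 were counted in neither group, PI in CB-RNA only (110 exonic reads) and SEP3 in both. Of the seed storage genes, CRA1 (3829 reads) and CRU3 (1366) were counted in mRNA only and CRU2 in neither.

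A second rRNA-depleted chromatin preparation, RNAe+RNAf, also came from 10-day-old Col-0 seedlings. Its shares are given beside those of CB-RNA where they bear on a result. It was set against the same mRNA table, so the pair of ratios share their denominator.

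The first measure was the share of exonic reads, given as RPM, the exonic reads of a gene per 1000000 exonic reads of its table. The share was at least 2-fold higher in CB-RNA for 4155 genes (28.8%) and at least 2-fold lower for 3066 (21.3%). Among the gene lists, it was at least 2-fold lower for 32 of 33 genes of the photosystem core and Calvin cycle, with FNR2 higher, 222 of 251 ribosomal protein genes and 15 of 21 actins and tubulins. It was at least 2-fold higher for 58 of 65 NLR immune receptor genes and 70 of 121 non-coding RNA genes. The median gene was higher in CB-RNA by 0.26 on the log2 scale (quartiles -0.78 and 1.15). With ratios centred on the median gene the split was 3164 higher and 3700 lower. Differences of at least 16-fold were found in 68 genes with the higher share in CB-RNA (0.472%) and 95 with the lower (0.659%). Among the genes in the comparison, the 100 most abundant in each group held 13.6% of all exonic reads in CB-RNA and 22.4% in mRNA.

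**Figure D1:**
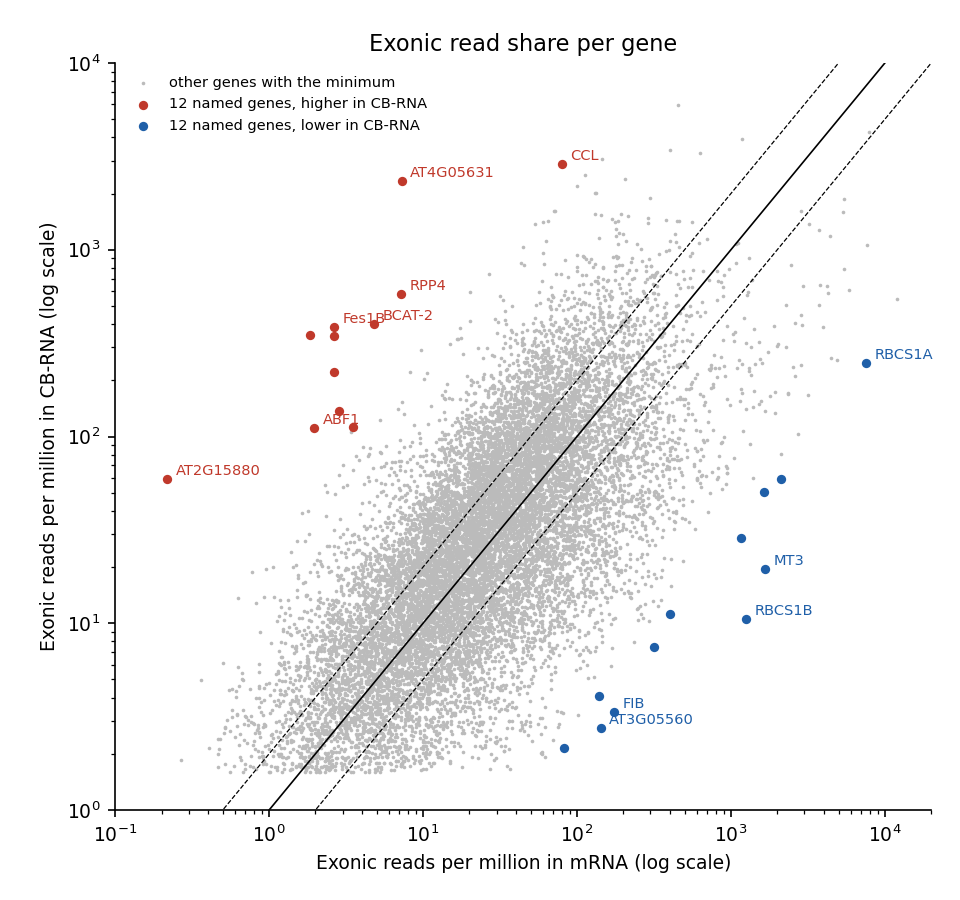
Exonic RPM in mRNA (horizontal axis) and in CB-RNA (vertical axis) for 14412 genes, both on log scales, 1 point per gene from pooled libraries. The solid line marks equal shares and the dashed lines a 2-fold difference. AT4G05631 lies 320-fold above the line and RBCS1B 119-fold below it.

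Among the genes that led the chromatin side, AT4G05631 (chromosome 4, 2990006 to 2992618, minus strand), an uncharacterised protein gene with 9 introns, had 2329 RPM in CB-RNA and 7.27 in mRNA. The difference was 8.32 on the log2 scale (8.25 to 8.39). Its intronic reads were 0.948 of its exonic reads in CB-RNA and 0.959 in mRNA. Its listed introns were thus covered almost as deeply as its exons in both groups. AT2G15880, a leucine-rich repeat protein gene, stood at 59.3 and 0.218 RPM, with ratios of 1.11 and 1.12. AT2G31141 stood at 349.0 and 1.84, with ratios of 0.938 and 1.05. It overlaps AT2G31140 and AT2G31150 on the opposite strand, and reads of overlapping genes cannot be told apart because the counting was not stated to use strand. In these 3 genes the reads beside splice sites did not separate exons from introns in either group.

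The other 9 leading genes had fewer intronic than exonic reads in both groups. Fes1B, which is related to nucleotide exchange factors of Hsp70, had 386.1 RPM in CB-RNA and 2.64 in mRNA (7.19, 7.07 to 7.31). RbcX1, an assembly chaperone of Rubisco, had 343.2 and 2.65 (7.02, 6.90 to 7.13). For BCAT-2, a transaminase of branched-chain amino acids, the shares were 401.0 and 4.81 (6.38, 6.29 to 6.47). The reads of all 3 were far rarer in mRNA. RPP4, a TIR-NBS-LRR receptor for resistance to downy mildew, had 577.8 and 7.21, an 80.2-fold difference, and the ABA-responsive transcription factor ABF1 had 110.6 and 1.96. CCL, a clock-controlled gene, was the most abundant of the 12 in CB-RNA, with 2868 RPM against 80.2 in mRNA. AT4G16146 was the exception in splicing. Its ratio was 0.432 in CB-RNA and 0.00246 in mRNA, from 2 intronic reads, whereas the other 11 had mRNA ratios from 0.05 to 1.12. In RNAe+RNAf, the log2 share ratio of the 12 genes ran from 3.67 in AT5G43440 to 8.60 in AT4G05631.

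On the other side, RBCS1B, which encodes a small subunit of Rubisco, had 328 exonic reads in CB-RNA and 292897 in mRNA, or 10.5 and 1253 RPM. The difference was -6.90 (-7.06 to -6.74). RBCS1A, the more abundant member of the family, had 247.3 and 7548 RPM (-4.93). The metallothioneins, small metal-binding proteins, stood at similar distances: MT3 had 19.4 and 1674 RPM (-6.43) and MT2B 28.7 and 1155 (-5.33). PSAK, a subunit of photosystem I, had 59.2 and 2107, and NPQ4, which is needed for the dissipation of excess light energy, had 50.6 and 1650. FIB, a plastid lipid-associated protein, had 3.36 and 174.9. The ribosomal protein genes AT3G05560 and AT2G27710 had 2.75 and 142.1 and 11.3 and 403.3. NDA1, an alternative NAD(P)H dehydrogenase, had 7.45 and 314.2 and was not counted in RNAe+RNAf. These 12 genes had 1 to 7 introns. In RNAe+RNAf, the log2 share ratios of the 11 counted there ran from -6.00 in PSAK to -3.36 in RBCS1A.

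The genes were then described by list, with all genes as the background. Of 33 genes of the photosystem core and the Calvin cycle with the minimum, 32 were at least 2-fold lower in CB-RNA, against 21.3% of all genes. The median was -3.49. RCA, the activase of Rubisco, had the largest share of any gene in mRNA, 11954 RPM, and 548.2 in CB-RNA. Phosphoribulokinase (PRK), which makes the substrate of Rubisco, had 140.6 and 1259. The exception was FNR2, a ferredoxin-NADP reductase, at 3400 RPM in CB-RNA and 402.9 in mRNA (3.08, 3.06 to 3.09). Its paralog FNR1 had 354.2 and 1036 (-1.55).

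All 15 light-harvesting chlorophyll protein genes with the minimum were lower in CB-RNA, 14 of them at least 2-fold. The median was -2.64. These proteins carry the antenna pigments of the photosystems. LHCA4 had 1586 RPM in CB-RNA and 5352 in mRNA, LHCB5 had 1061 and 7675, and LHCB3 had 641.5 and 4236. In RNAe+RNAf the median of the list was -4.90, and LHCB3 had 23.9 RPM. Members without introns are not in the tables.

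Ribosomal protein genes formed the largest list, with 251 members, of which 222 were at least 2-fold lower and 2 at least 2-fold higher. Over all genes the parts were 21.3% and 28.8%. The median was -2.56, and -1.68 with RNAe+RNAf. RefSeq names do not separate all plastid members, such as EMB3126, which had 192.5 and 338.6 RPM. Among genes of the housekeeping type, 15 of 21 actins and tubulins were at least 2-fold lower and none was 2-fold higher. ACT2, the main actin of vegetative tissue, had 74.98 and 457.2 RPM (-2.61). Of 13 heat shock chaperones, 8 were at least 2-fold lower and none higher. HSP60 had 82.7 and 284.9, but HSP93-III had 143.4 and 141.0. With RNAe+RNAf the median of the chaperones was -0.04, against -1.32 with CB-RNA, and none of the 12 with the minimum there was 2-fold lower.

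**Figure D2:**
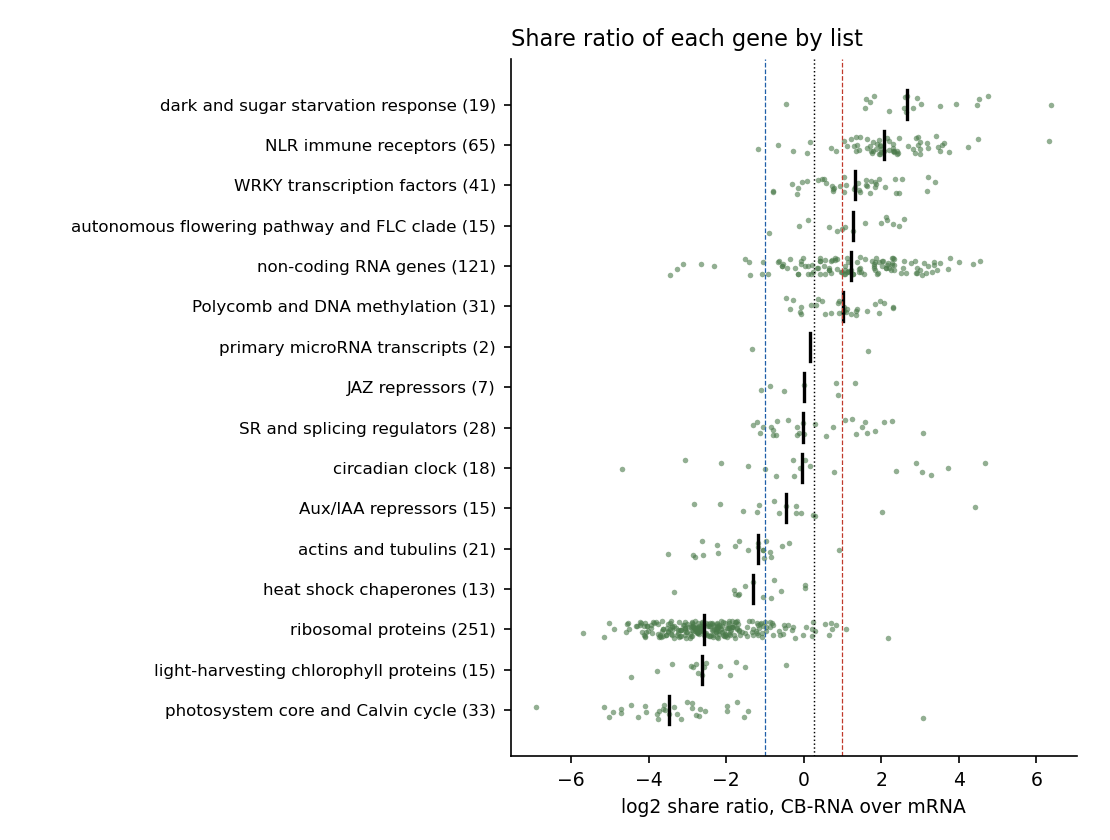
The log2 share ratio of CB-RNA over mRNA (horizontal axis) for each gene of 16 lists, 1 point per gene, with the number of members in brackets. Black bars mark list medians, the dotted line the median of all genes (0.26) and the dashed lines a 2-fold difference. The medians run from -3.49 in the photosystem core and Calvin cycle to 2.66 in the dark and sugar starvation response. The latter list was added after high share ratios of some of its genes were seen.

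Genes for NLR immune receptors, which detect pathogen effectors inside the cell, lay at the chromatin end. Of 65 with the minimum, 58 were at least 2-fold higher in CB-RNA, against 28.8% of all genes, and AT1G61300 was 2-fold lower. The median was 2.06, and 2.26 with RNAe+RNAf. SNC1 had 491.0 RPM in CB-RNA and 66.7 in mRNA (2.88, 2.85 to 2.91), RPS6 (AT5G46470) had 286.2 and 44.6, and RPP5 had 358.1 and 30.4. SNC1, RPP4 and RPP5 lie in 1 cluster of related genes on chromosome 4. Reads with more than 1 alignment had been removed, so counts of close relatives are uncertain. Intronic reads were also frequent in mRNA: 29 of the 65 had a ratio less than 4-fold lower in mRNA than in CB-RNA, against 11.4% of all genes, and SNC1 had 0.471 and 0.239.

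WRKY transcription factors, many of which act in defence, were at least 2-fold higher in CB-RNA in 25 of 41 cases and 2-fold lower in none (median 1.31). Over all genes the parts were 28.8% and 21.3%. WRKY33 had 203.2 and 34.9 RPM, and WRKY40 had 85.3 and 23.6. The ratio of WRKY40 differed little, at 0.431 in CB-RNA and 0.342 in mRNA. Of 31 Polycomb and DNA methylation genes, 16 were at least 2-fold higher and none 2-fold lower (median 1.0035). Examples are the DNA glycosylase DME (19 introns) with 197.5 and 50.6 and the chromomethylase CMT2 (22 introns) with 233.7 and 74.9. Over all genes with 10 to 19 introns 42.6% were at least 2-fold higher, and with 20 or more 68.3%. The part of intron number in the list counts was not tested. Centring on the median gene left 10 of these 16.

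In the autonomous flowering pathway and its MADS-box targets, 10 of 15 genes were at least 2-fold higher in CB-RNA (median 1.26), against 28.8% of all genes. FCA, an RNA-binding protein of that pathway with 20 introns, had 317.0 and 52.9 RPM (2.58). SVP, a floral repressor, had 677.0 and 156.0 (2.12). The relatives of FLC named MAF1 and AGL31 had 289.6 and 65.2 and 343.6 and 62.2. FLC itself, the central floral repressor, had 10.9 in CB-RNA and 20.1 in mRNA (-0.88), a difference under 2-fold.

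Of 121 non-coding RNA genes with the minimum, 70 were at least 2-fold higher in CB-RNA and 10 at least 2-fold lower (median 1.23). Over all genes the parts were 28.8% and 21.3%. AT4G13495 had the largest count of exonic reads of any gene in CB-RNA, 185628, or 5938 RPM against 453.0 in mRNA. This count is uncertain: its intron 3 is listed with a start after its end and overlaps AT4G06075, AT4G13493 and AT4G13494. AT2G24755 had 538.4 and 33.2. Its intron with the most intronic reads, intron 10, is listed with a length of only 4 bp. That intron held 22.5% of the intronic reads of the gene in CB-RNA and 19.3% in mRNA. Intronic reads of the non-coding RNA genes were frequent in both groups: 96 of 121 had a ratio less than 4-fold lower in mRNA. The median ratio was 0.781 in CB-RNA and 0.523 in mRNA. Of the 2 primary microRNA transcripts, MIR824 had 14.7 and 4.65 RPM and MIR414 had 4.25 and 10.7 (-1.33). With the last intron only, the share ratio of MIR414 turned to 0.34.

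Of 28 SR proteins and other splicing regulators, 10 were at least 2-fold higher and 4 at least 2-fold lower (median -0.01), against 28.8% and 21.3% of all genes. The RNA-binding protein gene GRP7, which is under clock control, had 923.8 and 109.9 RPM (3.07) and SR30 had 528.4 and 253.6, whereas RSZ22 had 38.7 and 96.6. Of 7 JAZ repressors of jasmonate signalling, JAZ4 was at least 2-fold higher and JAZ10 at least 2-fold lower. With RNAe+RNAf 3 of 6 were higher, and with the last intron only 2 of 5. Of 15 Aux/IAA repressors of auxin signalling, 2 were higher and 5 lower, and with RNAe+RNAf 2 of 13 were lower. IAA29 had 78.6 and 3.65 RPM (4.43) and IAA8 had 31.0 and 221.7 (-2.84).

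Of 18 circadian clock genes, 6 were at least 2-fold higher and 4 at least 2-fold lower, shares near the 28.8% and 21.3% of all genes. PRR7, a repressor that acts during the day, had 1368 RPM in CB-RNA and 53.1 in mRNA (4.69, 4.66 to 4.72). GI had 272.0 and 28.1 (3.27) and TOC1, an evening gene, had 115.5 and 8.77 (3.72). The morning genes LHY and CCA1 were on the opposite side, LHY at 15.9 and 407.6 (-4.68) and CCA1 at 66.1 and 288.1 (-2.12). Other members differed less: the LHY/CCA1-like gene LCL1 had 243.2 and 295.4 (-0.28), and AT3G54500 was higher in CB-RNA (0.78). These genes were picked from the list, so they give no pattern by time of day.

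The other chromatin preparation gave other values for some of these genes, and 14 of the 18 were counted in it. Of the 6 higher genes, 4 were at least 2-fold higher with RNAe+RNAf too. Of the 4 lower genes, 1 was at least 2-fold lower there. PRR7 had 66.1 RPM in RNAe+RNAf, a difference from mRNA of 0.32. LHY and CCA1 were not counted there. AT3G54500, which RefSeq also lists as LNK2, a clock coactivator, had 955.9 in CB-RNA, 33.9 in RNAe+RNAf and 555.8 in mRNA. TOC1 was higher than mRNA with each preparation, at 3.72 and 4.45. The time of day at which the seedlings were collected is not given in the sources used here, so its part in the share ratios was not tested.

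Genes induced by darkness and sugar starvation were added as a list after BCAT-2, MCCA, STP14 and BT2 were seen among the high share ratios, so the count describes these data only. Of 19 members, 18 were at least 2-fold higher in CB-RNA, against 28.8% of all genes, and the median was 2.66. With both chromatin preparations 12 were at least 2-fold higher. ASN1, an asparagine synthetase, had 2009 RPM in CB-RNA, 218.0 in RNAe+RNAf and 131.6 in mRNA. SEN1 had 1558, 361.1 and 192.2. MCCA, a subunit of methylcrotonyl-CoA carboxylase in leucine breakdown, had 1609, 422.6 and 70.5. BT2 had 1606, 1654 and 71.8 and was the member with nearly equal shares in both preparations. The median with RNAe+RNAf was 1.48. Whether the condition of the seedlings at harvest had a part in these values was not tested.

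**Figure D3:**
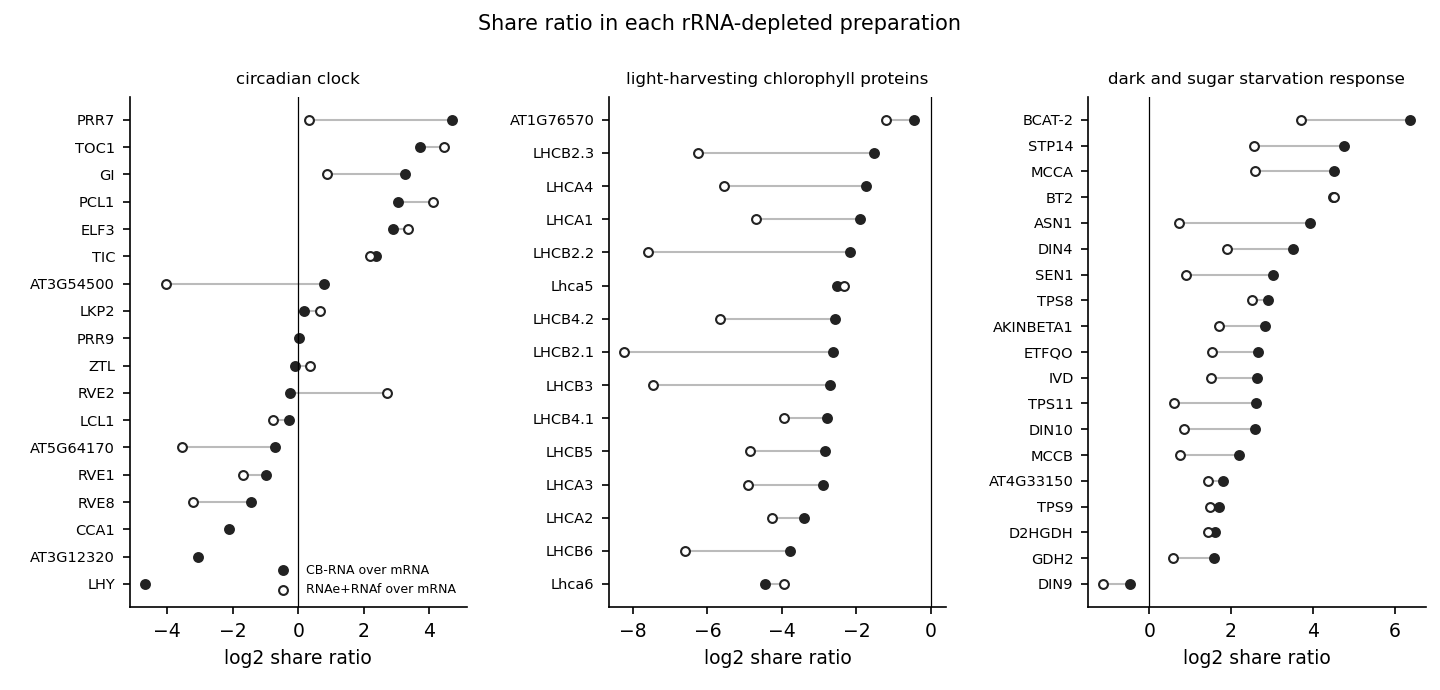
The log2 share ratio over mRNA (horizontal axes) for genes of 3 lists (vertical axes), with CB-RNA as filled and RNAe+RNAf as open circles, both against the same mRNA table. Clock genes without an open circle were not counted in RNAe+RNAf. PRR7 stands at 4.69 and 0.32, and LHCB3 at -2.72 and -7.47.

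The share ratio went with gene structure. Of 1632 genes with 1 intron, 21.6% were at least 2-fold higher in CB-RNA and 32.4% at least 2-fold lower. Of 441 genes with 20 or more introns, 68.3% were higher and 0.680% lower. The median log2 share ratio was -0.21 with 1 intron and 1.36 with 20 or more. Genes at least 2-fold higher had a median length of 3160 bp and 7 introns, and those at least 2-fold lower 1836 bp and 3 introns. With the last intron alone, 1778 of 12621 genes were at least 2-fold lower and 5359 at least 2-fold higher, and the median log2 share ratio was 0.73. The part of the position of reads along the gene was not tested.

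**Figure D4:**
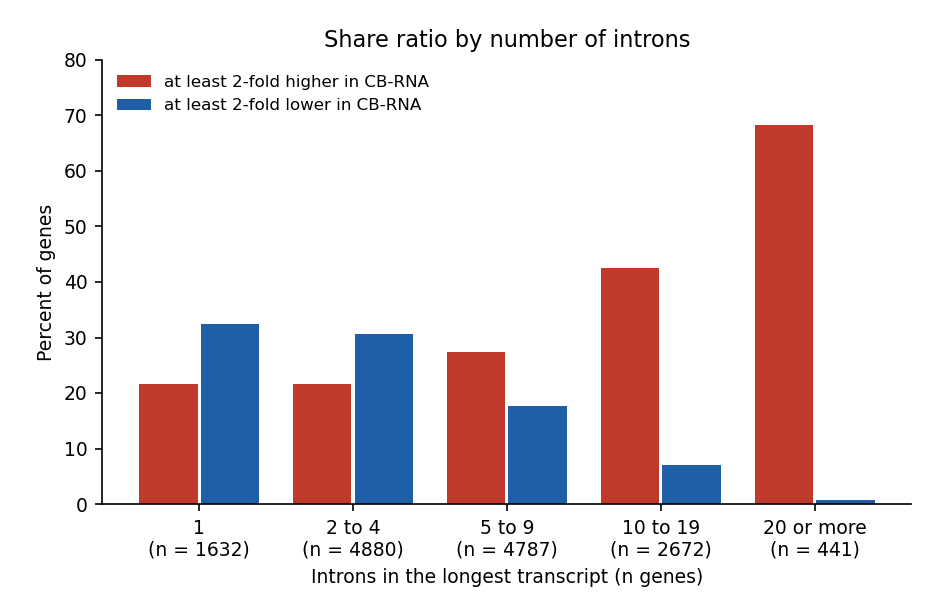
Percent of genes (vertical axis) with a share at least 2-fold higher (red) or lower (blue) in CB-RNA than in mRNA, by the number of introns in the longest transcript (horizontal axis), with the number of genes in brackets. The red bars go from 21.6% to 68.3% and the blue bars from 32.4% to 0.680%.

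Of the genes outside the comparison, 866 were counted in CB-RNA only, 670 in mRNA only, 5489 in neither, and 684 in both but with fewer than 50 exonic reads in at least 1 group. The smaller of the 2 counts was 49 in 15 genes just below the minimum and 50 in 17 genes just at it. The authors kept genes above an expression minimum, so a gene missing from a table cannot be read as absent. With CB-RNA only, AT3G41762 had 46682 exonic reads, the non-coding AT5G06165 had 22861, and AT7SL-1, an RNA of the signal recognition particle, had 6328. LpxC3 had 5903. Near-identical copies make some of these counts uncertain: the transcript of AT7SL-1 is 98.01% identical to AT4G03350 over 702 bp, that of LpxC3 100% to AT1G24793 over 1227 bp, and that of MT1A 98.1% to AT5G56795 over 104 bp. With mRNA only, MT1A, another metallothionein, had 389851 exonic reads, TT4, the chalcone synthase of flavonoid synthesis, had 16523, and the glutathione S-transferase ERD9 had 12506.

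The second measure was the fall, the ratio of intronic to exonic reads in CB-RNA over that in mRNA, on the log2 scale with a pseudocount of 1. The median fall over 14412 genes was 4.12 (quartiles 2.97 and 5.23). It was at least 64-fold in 1790 genes (12.4%) and less than 4-fold in 1640 (11.4%), and in 111 genes (0.77%) the ratio was higher in mRNA. Ribosomal protein genes had falls of at least 64-fold in 149 of 251 cases, and non-coding RNA genes of less than 4-fold in 96 of 121. Per intron the median was 4.98, with a fall of at least 64-fold in 18370 introns (30.5%) and of less than 4-fold in 4172 (6.92%). In 334 introns (0.554%) the ratio was higher in mRNA. Named genes and introns were taken by the bound of the counting interval, which favours deep counts.

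**Figure D5:**
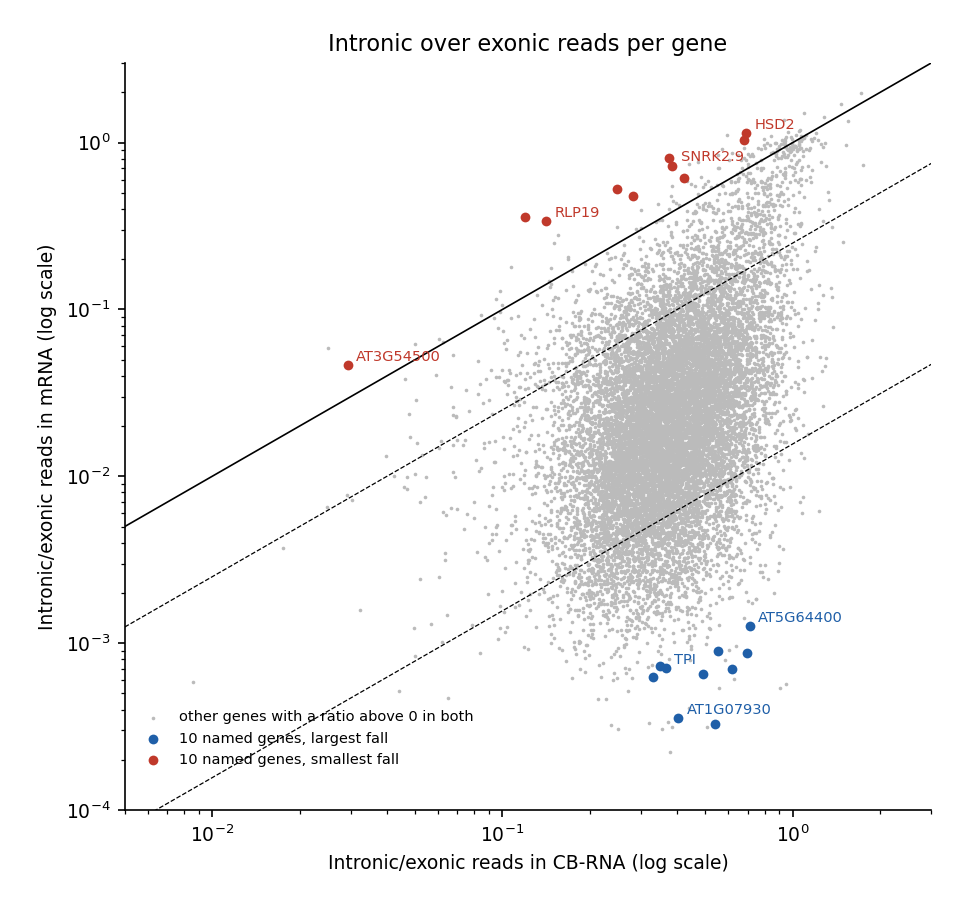
Intronic over exonic reads per gene in CB-RNA (horizontal axis) and in mRNA (vertical axis), both on log scales, 1 point per gene from pooled libraries. The solid line marks equal ratios and the dashed lines falls of 4-fold and 64-fold. Of the 14412 genes, 43 lie outside the axes, 42 of them with no intronic read in mRNA. Named genes with the smallest fall lie above the solid line.

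Among genes, AT1G07930, an elongation factor EF-Tu family gene, had 263 intronic reads beside 653 exonic ones on chromatin (ratio 0.403). In mRNA it had 9 and 25450 (ratio 0.000354). The fall was 10.00 (9.09 to 10.92). Its transcript is 96.4% identical to that of AT1G07920 over 1543 bp, so reads shared by both genes were removed. TPI, the triosephosphate isomerase of glycolysis, had ratios of 0.365 and 0.000708, with 217 intronic reads among 306547 exonic reads in mRNA (9.01, 8.80 to 9.21). PAB2, a poly(A) binding protein, had 0.330 and 0.000630 (9.01, 8.67 to 9.36). The cytochrome c1 gene AT3G27240 had 0.552 and 0.000895, and the ribosomal protein gene AT1G07070 had 0.540 and 0.000330, from 2 intronic reads in mRNA. All 10 genes with the largest falls also had lower shares in CB-RNA, from -1.79 in CDC25 to -4.36 in AT5G64400. The fall and the share ratio contain the same exonic reads, so this is not a separate result.

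Falls of at least 64-fold were also found in 13 of 21 actins and tubulins and 9 of 13 heat shock chaperones, against 12.4% of all genes. The pseudocount of 1 lowers the largest fall that a gene with few mRNA reads can reach. Median exonic reads in mRNA were 12791.5 for genes at least 2-fold lower in CB-RNA and 3796 for those at least 2-fold higher. The part of read depth in the list counts, with that of the ribosomal protein genes, was not tested. The 5 genes that the study had chosen for PCR had ratios in CB-RNA from 0.226 in FUG1 to 0.510 in NIR1 and in mRNA from 0.00148 in FUG1 to 0.0115 in NIR1. Their falls ran from 4.93 in AT5G55220 to 7.25 in FUG1, all above the median gene.

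Over all genes the pair of measures went together. From the lowest to the highest of 5 equal classes of the share ratio, the median fall went from 5.47 to 2.95. Between these classes the median ratio in CB-RNA went from 0.401 to 0.342, and that in mRNA from 0.00861 to 0.0413. Spearman's rho between share ratio and fall was -0.50 across 14412 genes. Both measures contain the same exonic reads, and genes are not independent replicates, so this is a description only.

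The genes with the smallest falls had more intronic reads per exonic read in mRNA than on chromatin. In AT1G59124, a CC-NBS-LRR gene, the ratio was 0.120 in CB-RNA and 0.356 in mRNA (-1.56, -2.09 to -1.02). Its transcript is identical to that of AT1G58807 over its whole length of 4090 bp. Reads with more than 1 alignment had been removed, so its exonic counts and its ratios are uncertain. Intron 4 held 100% of its intronic reads in mRNA. RLP19, a receptor-like protein with 1 intron, had ratios of 0.141 (132 intronic beside 934 exonic reads) in CB-RNA and 0.340 (145 and 427) in mRNA (-1.26). MMH-1, a DNA glycosylase, had 0.423 and 0.617, and HSD2, a hydroxysteroid dehydrogenase, had 0.689 and 1.14. In HSD2, intron 6 held 99.9% of the intronic reads in mRNA. SNRK2.9, a protein kinase of the SnRK2 family, had 0.385 and 0.729, and intron 8 held 97.7% of its intronic reads in mRNA. The direction turned for SNRK2.9 with the 3′ splice sites only (fall 2.94) and with the median over introns (4.06), and for MMH-1 with the median over introns (0.94).

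AT3G54500 (LNK2) had the lowest ratios of these genes, 0.0293 in CB-RNA and 0.0465 in mRNA. In RNAf, the polyadenylated chromatin RNA, it was 0.0330, and in RNAe+RNAf 0.0607. The direction of the difference thus turned with RNAe+RNAf (fall 0.44), and also with the median over its introns (0.24). AT5G02370, a microtubule motor family gene, had 0.680 and 1.03, but 99.98% of its intronic reads in mRNA came from intron 12, and the median fall over its introns was 4.13. That intron is listed at 506765 to 507126 on chromosome 5. RefSeq ends AT5G02370 at 505982, and the listed intron lies inside MT2B (506498 to 507244) on the opposite strand, which had 1155 RPM in mRNA. Here the reads of the pair of genes cannot be told apart. RCA had ratios of 0.160 and 0.0478, a fall of 1.75, and its intron 6 (124 bp) held 97.7% of its intronic reads in mRNA, where 130553 intronic stood beside 523884 exonic reads. In CB-RNA the ratio of that intron was 0.339, against 0.249 in mRNA.

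Overlap with other genes went with small falls. Of all genes, 33.9% overlap another RefSeq gene, compared with 40.1% of those with falls of less than 4-fold and 51.4% of those with the ratio higher in mRNA. Among the 9520 genes that overlap none, 982 had falls of less than 4-fold, so most of the class had no overlapping partner by RefSeq gene spans. These spans can miss an overlap where the listed gene model is longer than the RefSeq gene. AT5G02370 is such a case.

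Intron sequences are shown for 5 of the introns with the largest falls and 5 of those with the smallest, to compare their ends. They were read from RefSeq TAIR10.1 at the coordinates of the tables, written from 5′ to 3′ on the strand of the gene, with the first 6 and the last 3 bases in capitals. The first 5 are intron 6 of TPI (chr3:20555579-20555688, plus strand), intron 16 of the vacuolar proton pump gene VHA-A3 (chr4:18214300-18214372, plus strand), intron 7 of the adenosine kinase gene ADK1 (chr3:3013372-3013469, plus strand), intron 1 of the ribosomal protein gene AT3G53870 (chr3:19951577-19951668, plus strand) and intron 1 of AT4G20150 (chr4:10889290-10889409, minus strand). All 5 lie inside the coding region.
TPI intron 6: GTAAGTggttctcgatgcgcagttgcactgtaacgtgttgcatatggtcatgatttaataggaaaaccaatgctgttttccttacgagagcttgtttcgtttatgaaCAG
VHA-A3 intron 16: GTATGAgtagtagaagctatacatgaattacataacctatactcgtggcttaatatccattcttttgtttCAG
ADK1 intron 7: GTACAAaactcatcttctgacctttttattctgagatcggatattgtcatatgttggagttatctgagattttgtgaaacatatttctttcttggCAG
AT3G53870 intron 1: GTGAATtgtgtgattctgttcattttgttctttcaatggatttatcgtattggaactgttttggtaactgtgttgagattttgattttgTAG
AT4G20150 intron 1: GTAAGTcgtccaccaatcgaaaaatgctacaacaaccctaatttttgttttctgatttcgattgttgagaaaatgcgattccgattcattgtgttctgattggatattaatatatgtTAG

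In TPI intron 6, chromatin gave 619 intronic reads beside 1288 exonic ones (ratio 0.481). In mRNA there were 18 and 40792 (ratio 0.000441), a fall of 10.01 (9.35 to 10.68). VHA-A3 intron 16 had 355 and 448 in CB-RNA (ratio 0.792). In mRNA it had no intronic read beside 5024 exonic reads, so with the 3 reads that a count of 0 allows the ratio was at least 1327-fold lower. ADK1 intron 7 had 96 and 254 in CB-RNA and 1 and 11677 in mRNA (11.12, 9.09 to 13.14). AT3G53870 intron 1 had 90 and 148, then 5 and 16689 (10.73), and AT4G20150 intron 1 had 71 and 144, then 3 and 17992 (11.13, 9.65 to 12.60). The widest intervals belong to the introns with the fewest reads in mRNA. All 8 introns named for the largest fall begin with GT and end with AG, as do 98.8% of the introns in the tables.

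The introns with the smallest falls are intron 8 of SNRK2.9 (chr2:9804032-9804160, minus strand), intron 13 of SNG1 (chr2:9789753-9789848, plus strand), intron 1 of AT3G56410 (chr3:20920905-20921020, minus strand), intron 4 of the non-coding RNA gene AT1G27921 (chr1:9729748-9729855, minus strand) and intron 6 of the non-coding RNA gene AT4G38545 (chr4:18023642-18023735, minus strand). They show which letters stand at ends where the ratio was higher in mRNA.
SNRK2.9 intron 8: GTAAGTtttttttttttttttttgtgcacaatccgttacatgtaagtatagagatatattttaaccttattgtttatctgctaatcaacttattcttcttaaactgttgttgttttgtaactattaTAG
SNG1 intron 13: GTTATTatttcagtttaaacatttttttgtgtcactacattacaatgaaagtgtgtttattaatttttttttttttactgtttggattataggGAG
AT3G56410 intron 1: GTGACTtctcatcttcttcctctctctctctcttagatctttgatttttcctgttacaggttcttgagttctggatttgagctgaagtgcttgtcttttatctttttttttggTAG
AT1G27921 intron 4: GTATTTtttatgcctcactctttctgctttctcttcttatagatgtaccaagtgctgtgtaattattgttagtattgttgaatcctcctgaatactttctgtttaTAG
AT4G38545 intron 6: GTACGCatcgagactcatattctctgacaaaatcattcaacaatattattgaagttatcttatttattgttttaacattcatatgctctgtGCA

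SNRK2.9 intron 8 had a ratio of 0.598 on chromatin (113 intronic, 189 exonic) and of 5.41 in mRNA (1217 and 225), a fall of -3.17 (-3.56 to -2.77). Of its intronic reads in mRNA, 1198 lay beside the 5′ splice site and 19 beside the 3′ splice site, and with the 3′ splice site only the fall was 1.605. SNG1, which encodes an enzyme that makes sinapoylmalate, a leaf sunscreen, had 1727 intronic beside 9130 exonic reads in its last intron on chromatin. In mRNA it had 13932 and 27581, ratios of 0.189 and 0.505 (-1.42, -1.50 to -1.34). In RNAe+RNAf the ratio was 0.509, which gives a fall of 0.013, so the higher ratio in mRNA was not seen with that preparation. With the 5′ splice site only, the fall was 2.099. Here 13486 of the intronic reads in mRNA lay beside the 3′ splice site and 446 beside the 5′ splice site. The listed intron ends in GAG, and the letters TAG stand 4 bases before its end.

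AT3G56410 intron 1 had 90 and 937 in CB-RNA and 158 and 342 in mRNA (-2.26), with similar counts at both sites. It lies under an exon of AT3G56408 on the opposite strand, and 1 RefSeq transcript retains it. AT1G27921 intron 4 had ratios of 0.0767 and 0.278, and 1 RefSeq transcript of that gene also retains it; the gene overlaps AT1G27920. AT4G38545 intron 6, which ends in CA rather than AG, had 0.125 and 0.428, and 509 of its 514 intronic reads in mRNA lay beside the 5′ splice site. With its 3′ splice site only the fall was 3.21, and the intron overlaps AT4G38540. AT1G26208 intron 3, also among the 8 but not shown, had ratios of 0.143 and 0.642 (-2.16). It ends in AAG, 4 RefSeq transcripts of the gene retain it, and it lies under an exon of AT1G26210. AT5G18255 intron 1 and AT4G13495 intron 3, also among the 8 introns with the smallest fall, have a start listed after their end. The fall of the former was 0.15 with the 5′ splice site only. It overlaps AT5G18260, and AT4G13495 intron 3 overlaps AT4G06075, AT4G13493 and AT4G13494.

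The ends of introns went with the fall over all introns. The 59594 introns with GT-AG ends had a median fall of 4.996, the 629 with GC-AG ends 3.86 and the 34 with AT-AC ends 3.16. The AT-AC introns had a median ratio of 0.542 in CB-RNA, against 0.273 for GT-AG introns, and of 0.0563 in mRNA. The 62 introns with other ends had a median fall of 0.16, with ratios of 0.940 and 0.736. Of these, 22 have a start listed after their end. Without them the other 40 had a median of 0.48.

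The base before the final AG differed too. Introns that end in CAG (40788) and TAG (16151) had median falls of 5.02 and 4.98, and those that end in AAG (3188) had 4.59. The 110 introns that end in GAG, as in SNG1, had a median fall of 0.96, and 59.1% of them had a fall of less than 4-fold, against 6.92% of all introns. In 13.6% of the GAG introns, the letters TAG or CAG stand within the 10 bases before the last 3, on the strand of the gene, against 1.08% of all introns with the minimum. Among introns with 3 of the starts that begin with GT, the medians were 5.06 for GTAAGT (5568 introns), 5.23 for GTATGT (2886) and 5.17 for GTGAGT (2648).

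Position and length also went with the fall. Internal introns had a median fall of 5.14, first introns 4.69, last introns 4.41 and sole introns 3.93. Introns of at least 1000 bp had a median of 3.75.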

How the data were processed

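RNA was sequenced from chromatin and from mature mRNA of seedlings. According to the methods and the submitters' processing notes, the authors trimmed reads with Trimmomatic 0.39, aligned them to the TAIR10 genome with HISAT2 2.2.0, sorted them with SAMtools 1.3.1, estimated expression with StringTie and removed reads with more than 1 alignment. The deposited values are read counts, exonic and intronic, beside the 5′ and 3′ splice sites of introns of the longest transcript, for genes above an expression minimum. The width of the windows and how replicates were joined are not given in the sources used here. The kit was directional, but the counting was not stated to use strand. No column of single libraries was left unused (0).

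Counts were summed over the introns of a gene. A share was the exonic reads per 1000000 exonic reads of its table (RPM), and a ratio was intronic over exonic reads, computed from the deposited counts. The minimum was 50 exonic reads, the pseudocount for falls was 1, a count of 0 allowed 3 reads, and intervals (95%) came from the variance of log counts. Depth per table was 31261639 exonic reads in CB-RNA, 233785720 in mRNA and 11171791 in RNAe+RNAf. The calculations were tested on simulated data. Python 3.11.15, numpy 2.4.6, pandas 2.3.3, matplotlib 3.10.9 and BLAST+ 2.17.0 (for near-identical transcripts) were used. Names, overlaps and sequences came from RefSeq TAIR10.1, in which 98.8% of listed introns had GT-AG ends.

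Members and lists were chosen with earlier results of these data known. Named were the 12 genes at each end of the share ratio, the 10 genes and 8 introns at each end of the fall (by the nearer bound of the interval), the 5 deepest genes counted in 1 group only, the 4 deepest members of each list and 5 genes measured by PCR in the study. Other list members and RCA intron 6 were chosen after their values were seen. Alternatives were each splice site alone, minimums of 10 and 200 reads, a pseudocount of 0.1, centring, the last intron alone, the median over introns, RNAe+RNAf in place of CB-RNA and, added after the data were seen, genes that overlap no other.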

Additional observations from a re-analysis of the deposited data

How the results depend on the processing

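No paired analysis was possible because each table holds pooled values with no replicate numbers, and for the same reason no replicate could be left out. Causes of the shifts below were not tested, beyond the number of genes or introns that each setting kept. Among the 9520 genes that overlap no other, a setting added after the data were seen, 2718 (28.6%) were at least 2-fold higher in CB-RNA. Of these genes, 2004 (21.1%) were at least 2-fold lower. Falls were at least 64-fold in 1190 (12.5%) and less than 4-fold in 982 (10.3%). Over all 14412 genes the percentages were close to these, at 28.8%, 21.3%, 12.4% and 11.4%. With the last intron only, 1778 of 12621 genes (14.1%) were at least 2-fold lower. With the median over introns, 635 of 11123 (5.71%) had falls of less than 4-fold. A minimum of 200 reads left 16224 introns, 4664 (28.7%) with falls of at least 64-fold and 1053 (6.49%) of less than 4-fold. RNAe+RNAf in place of CB-RNA gave 8134 (29.4%) and 1925 (6.95%) of 27707 introns. In the main setting these percentages were 30.5% and 6.92% of 60319 introns. With a pseudocount of 0.1, falls of at least 64-fold were found in 22649 of these introns, against 18370 with a pseudocount of 1. Among the 14412 genes the counts were 1871 and 1790.

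In the lists, RNAe+RNAf gave 2 Aux/IAA genes and 0 heat shock chaperones at least 2-fold lower and 3 JAZ genes at least 2-fold higher. The last intron gave 5 chaperones lower and 2 JAZ genes higher, and centring left 10 Polycomb and DNA methylation genes higher. The other 42 list values stayed within 1.5 times.

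Past a threshold and outside the counting interval, signs turned in these cases. With the last intron, the share ratio was -0.90 for AT1G58602 and 0.34 for MIR414. With the 3′ splice sites only, the fall was 2.94 for SNRK2.9, 0.90 for MIR414 and -0.013 for AT5G19221. With the median over introns it was 4.06 for SNRK2.9, 0.62 for AT2G42330, 0.24 for AT3G54500, 4.13 for AT5G02370, 0.94 for MMH-1 and 2.19 for ML3. With RNAe+RNAf it was 0.44 for AT3G54500 and 0.011 for ML3. Among introns, the fall was 0.15 for AT5G18255 intron 1 and 2.099 for AT2G22990 (SNG1) intron 13 with the 5′ splice site only. It was 1.605 for AT2G23030 (SNRK2.9) intron 8 and 3.21 for AT4G38545 intron 6 with the 3′ splice site only, and 0.013 for AT2G22990 intron 13 with RNAe+RNAf. Another 10 values of share ratios that were under 2-fold with CB-RNA, and 4 values of falls within their interval, also changed sign. The widest shift was in AT3G54500, whose share ratio was -4.03 with RNAe+RNAf.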
